A study of Mus musculus with 12 samples.

Results

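Neonatal and adult liver of control mice were compared through the autosomal H3K9me3 peaks that had been called over input in newborn liver, on the first (P1) and the fifth (P5) day after birth, and in adult liver. The 3 control lists held 762794 autosomal peaks of the 1667636 peaks in the 6 lists over input, made up of 247677 for P1, 239510 for P5 and 275607 for adult liver. The labels give the strain as C57BL/6, and the methods as C57BL/6J. Control mice were Cre controls, and Alb-D2KO mice, used here only as a second set of libraries, lack Dio2 in hepatocytes through a Cre driven by the albumin promoter. The chromatin of a P1 or P5 library came from pooled livers and that of the adult library from a single liver. Of the 12 samples of the series, 6 were H3K9me3 libraries and 6 inputs, with 1 library for each combination of genotype, age and type. The methods speak of more than 1 pooled P1 sample per genotype and of repeat sequencing on another day, and how these runs enter a list is not given in the sources used here. Each list was treated as 1 library, so no comparison here has a replicate and no p-value is given. P1 and P5 are different ages, and the difference between them is the only spread within the neonatal lists.

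H3K9me3, trimethylation of lysine 9 of histone H3, marks closed chromatin. It is written by enzymes such as SETDB1 and SUV39H, is bound by HP1 proteins, and is laid down over satellite and transposon sequence, over clustered gene families such as those of odorant receptors and zinc finger proteins, and over genes that a cell type does not use. In liver it is known to cover genes of other lineages. Newborn liver still makes blood, whereas adult liver consists mainly of mature hepatocytes. The mark was measured on whole liver, so a change within one cell type and a change in the mix of cells cannot be told apart. Peaks in marker genes of other liver cells are given below, and their part in the results was not tested.

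The sequences of 7 promoters are shown as examples of loci that lay in peaks at one age only. They were chosen after their values were seen, and each lay fully in a peak, over all 300 bases, at both neonatal ages and in no adult peak, or in the adult and in no neonatal peak, in control and in Alb-D2KO alike. They are RefSeq sequences of GRCm38.p6, which has the coordinates of mm10, written 5′ to 3′ on the strand of the gene. CpG sites are in capitals. The first 5 lay in neonatal peaks and the last 2 in adult peaks.
Cyp2c67 (chr19:39648993-39649292, minus strand): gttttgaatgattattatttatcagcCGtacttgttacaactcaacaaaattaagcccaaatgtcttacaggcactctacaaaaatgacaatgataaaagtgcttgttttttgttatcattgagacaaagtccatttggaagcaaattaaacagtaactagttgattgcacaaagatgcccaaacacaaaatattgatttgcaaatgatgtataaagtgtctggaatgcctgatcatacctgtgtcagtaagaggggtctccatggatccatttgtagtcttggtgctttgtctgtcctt
Sult2a8 (chr7:14446538-14446837, minus strand): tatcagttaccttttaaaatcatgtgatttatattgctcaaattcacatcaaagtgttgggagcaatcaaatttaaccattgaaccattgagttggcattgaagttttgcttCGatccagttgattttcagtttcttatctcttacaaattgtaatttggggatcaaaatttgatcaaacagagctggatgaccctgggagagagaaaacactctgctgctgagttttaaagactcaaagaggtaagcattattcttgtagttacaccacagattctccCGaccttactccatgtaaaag
Mup19 (chr4:61782175-61782474, minus strand): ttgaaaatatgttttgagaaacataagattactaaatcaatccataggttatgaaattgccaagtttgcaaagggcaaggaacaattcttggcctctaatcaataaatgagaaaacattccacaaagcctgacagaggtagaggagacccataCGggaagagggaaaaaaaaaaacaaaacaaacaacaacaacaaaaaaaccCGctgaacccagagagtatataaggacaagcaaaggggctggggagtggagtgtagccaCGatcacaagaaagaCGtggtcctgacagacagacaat
Tcp10c (chr17:13354322-13354621, plus strand): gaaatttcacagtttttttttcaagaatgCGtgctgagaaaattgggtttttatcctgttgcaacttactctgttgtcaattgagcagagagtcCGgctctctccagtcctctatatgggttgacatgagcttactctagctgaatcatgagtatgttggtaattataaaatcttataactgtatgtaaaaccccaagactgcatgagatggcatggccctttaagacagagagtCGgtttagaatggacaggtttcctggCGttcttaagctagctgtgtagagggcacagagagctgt
Olfr802 (chr10:129682688-129682987, minus strand): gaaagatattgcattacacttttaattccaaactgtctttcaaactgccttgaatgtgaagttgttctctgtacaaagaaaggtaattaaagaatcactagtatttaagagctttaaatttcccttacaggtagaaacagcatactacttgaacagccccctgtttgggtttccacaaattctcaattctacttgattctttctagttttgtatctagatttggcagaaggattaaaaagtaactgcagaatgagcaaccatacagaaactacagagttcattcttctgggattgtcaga
Tiam1 (chr16:89974650-89974949, minus strand): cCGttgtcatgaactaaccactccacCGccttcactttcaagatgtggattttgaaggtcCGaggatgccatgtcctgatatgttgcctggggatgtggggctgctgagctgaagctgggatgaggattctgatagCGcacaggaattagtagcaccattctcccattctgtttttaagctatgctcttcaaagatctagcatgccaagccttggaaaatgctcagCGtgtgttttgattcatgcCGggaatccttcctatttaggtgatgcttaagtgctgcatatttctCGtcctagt
Zfp780b (chr7:27979108-27979407, minus strand): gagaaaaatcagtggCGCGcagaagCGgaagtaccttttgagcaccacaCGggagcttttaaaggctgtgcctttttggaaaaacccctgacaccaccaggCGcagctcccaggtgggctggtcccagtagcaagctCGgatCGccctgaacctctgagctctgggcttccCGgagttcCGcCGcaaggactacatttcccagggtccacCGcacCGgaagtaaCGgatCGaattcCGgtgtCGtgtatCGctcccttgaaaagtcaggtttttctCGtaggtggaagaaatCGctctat
Cyp2c67 and Sult2a8, both enzymes of adult liver metabolism, held 1 and 2 CpG sites, Mup19, a major urinary protein secreted by hepatocytes, held 4, Tcp10c, a testis gene, held 4, and the odorant receptor gene Olfr802 held 0. The stretch of Tiam1, an activator of the GTPase Rac, held 7 and that of the zinc finger gene Zfp780b held 19. For Tiam1 and Olfr802 the start shown is an inner one, which lies within the gene body, downstream of the outermost start. The annotated body of Sult2a8 reaches to position 14446769, inside its stretch, most of which therefore lies in the gene body too.

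Over all promoters, 562 of 31396 (1.79%) had at least 150 of their 300 bases in peaks at both neonatal ages and none in the adult, and 483 (1.54%) had the reverse. The neonatal ones had a median of 1 CpG site and a GC content of 36.7%. The adult ones had a median of 2 sites (quartiles 1 and 5) and 44.0%, and all promoters a median of 7 and 53.0%. Both adult examples above therefore held more CpG sites than most of their class, of which 8.49% had 10 or more. At least 1 CG was present in 71.9% of the neonatal promoters, 85.5% of the adult ones and 94.8% of all promoters of this length. Of the Mup promoters, 23 of 38 were in the neonatal class, 21 of them also in Alb-D2KO, and 1 was in the adult class. Mup genes are near-identical copies, so reads can be shared among them and these are not separate observations. Of the Olfr promoters, 144 of 942 were neonatal and 53 adult, and 59 and 4 of these were in the same class in Alb-D2KO. Of the bitter taste receptor (Tas2r) promoters 14 of 31 were neonatal, 7 of them also in Alb-D2KO, and 1 was adult. The zinc finger (Zfp) promoters were more often adult than neonatal, with 2 of 399 (0.501%) neonatal and 13 (3.26%) adult. In Alb-D2KO 1 and 5 of these were in the same class. The Olfr promoters were above the shares of all promoters in both directions, with 15.3% neonatal and 5.63% adult. In all, 184 of the 562 neonatal (32.7%) and 94 of the 483 adult promoters (19.5%) fell in the same class in Alb-D2KO. The share of all promoters in each class in Alb-D2KO is not given here, so no conclusion is drawn from these counts.

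Neonatal lists covered more of the genome than the adult list although they held fewer peaks. Covered bases, that is bases inside any peak of a list, came to 461.5 and 488.3 Mb for P1 and P5 against 395.6 Mb for the adult, or 19.3%, 20.4% and 16.5% of the known autosomal sequence. In Alb-D2KO the same 3 ages had 471.7, 497.7 and 382.3 Mb. The order depended on peak strength. With only peaks whose −log10 p was above 2, the control lists covered 54.1, 49.0 and 100.8 Mb, so that the adult list then covered the most. Weak peaks were more common in the neonatal lists, where 20.2% of P1 peaks and 26.9% of P5 peaks had a −log10 p below 1.30, against 4.73% in the adult. Depth of the libraries is unknown, and its part in these lengths was not tested.

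With all peaks of each list, neonatal peaks were wider. The median width was 962 and 1048 bp for P1 and P5 and 821 bp for the adult, with upper quartiles of 2102, 2332 and 1570 bp. Peaks of 5 to 20 kb made up 7.17% of P1 peaks (95% Wilson interval 7.06 to 7.27%), 8.48% of P5 peaks (8.37 to 8.59%) and 3.92% of adult peaks (3.84 to 3.99%). These intervals cover counting error only. Peaks of that class held 31.2%, 34.2% and 22.0% of the bases. Peaks under 500 bp were 25.8%, 23.7% and 29.0% of the lists. The order of widths depended on peak strength too. With −log10 p above 2 the medians were 1150, 1472 and 1121 bp and the upper quartiles 2922.5, 3952.5 and 3165 bp. At the upper quartile P1 then lay below the adult.

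**Figure D1:**
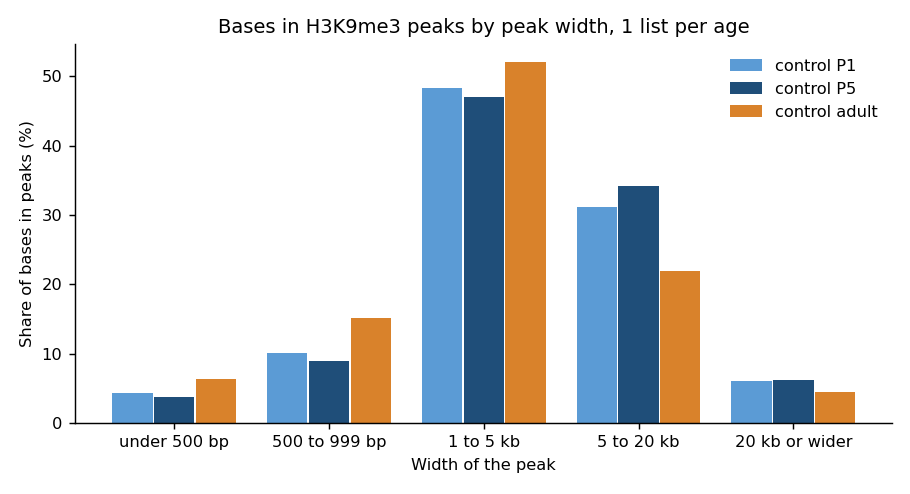
Share of the bases in control H3K9me3 peaks (y axis, %) by the width of the peak (x axis), with 1 bar per age and 1 list per bar. In the class of 5 to 20 kb the P1 and P5 bars stand at 31.2% and 34.2% and the adult bar at 22.0%, and in the next class above 500 bp the adult bar is the highest at 15.2%.

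Widths differed most at gene starts. Peaks that the lists assign to a transcription start site had a median width of 1930 and 1985 bp for P1 and P5 and 1234 bp for the adult, and held 48.6, 49.8 and 33.4 Mb. In introns the medians were 772, 843 and 731 bp, and the bases 69.0, 74.5 and 67.6 Mb. Intergenic peaks held 66.2%, 66.1% and 64.8% of the bases. Hence the division of bases between intergenic and genic sequence was much the same at each age, while the length at gene starts was not.

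Peaks that overlapped both other lists were the wide ones, but under a 1-bp rule a wide peak meets another list more easily. The order of widths is thus partly set by the rule. Of the adult peaks, 47.9% overlapped both neonatal lists by at least 1 bp, with a median width of 1299 bp, and 28.4% (95% Wilson interval 28.2 to 28.6%) overlapped neither, with a median of 536 bp. The adult peaks without a neonatal partner held 13.6% of the adult bases. Of the P1 peaks, 22.8% overlapped neither other list, with a median width of 471 bp, and 18.9% overlapped P5 only, with 831 bp. Counted by bases, 147.5 Mb lay in peaks at all 3 ages, 145.7 Mb at P1 and P5 but not in the adult, and 125.7 Mb in the adult alone. P1 alone had 114.4 Mb and P5 alone 126.6 Mb, so that single lists each held a similar length of their own.

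Along the autosomes the 2 neonatal lists lay together on one side of the adult in stretches of very different length. Covered bases were counted in 23987 windows of 100 kb. A window was called when both neonatal values were above, or both below, the adult by at least 20 kb and by more than P1 and P5 differed. Of all windows, 3002 (12.5%) were higher in neonatal and 460 (1.92%) higher in adult. With no limit on the gap, both neonatal values were above the adult in 8291 windows (34.6%) and below it in 9511 (39.7%). The neonatal majority therefore depended on the limit. The median difference between P1 and P5 was 1.62 kb. In the neonatal-higher windows the median covered length was 69.4 and 70.4 kb for P1 and P5 and 32.6 kb for the adult, and in the adult-higher windows 13.2, 16.7 and 45.4 kb. Just inside and outside the limit, the gaps were 20.004 and 19.999 kb in the neonatal direction and 20.013 and 19.998 kb in the adult direction.

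**Figure D2:**
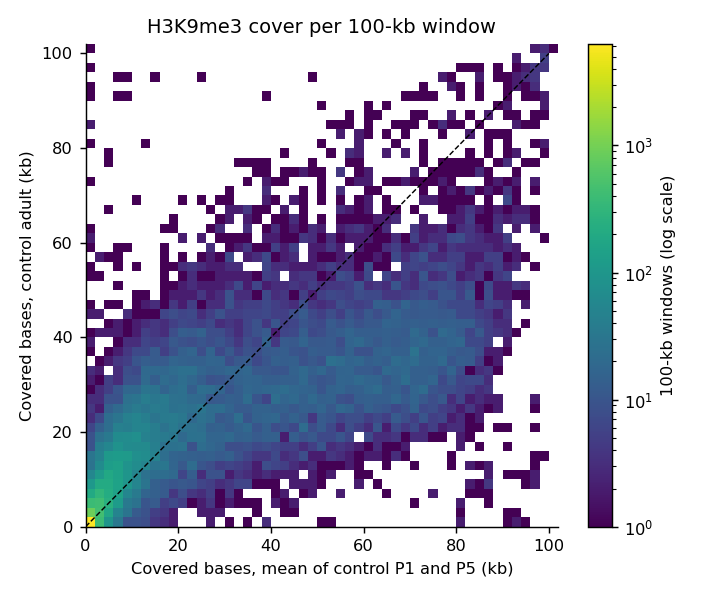
Covered bases of 100-kb windows in control liver, with the mean of P1 and P5 on the x axis, the adult on the y axis (both kb) and colour giving the number of windows on a log scale. The dashed line marks equal values, and a band of windows near 70 kb in neonatal and 33 kb in adult lies below it, while few windows lie far above it.

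The split also depended on strength and scaling. When the lists were scaled to equal covered bases, which moved the adult by 0.18 and P1 and P5 by -0.04 and -0.12 on the log2 scale, 1928 windows were higher in neonatal and 1062 in adult. Therefore the share of calls in the neonatal direction went from 86.7% to 64.5%. With only peaks of −log10 p above 2, 93 windows were higher in neonatal and 501 in adult, and 12 windows called neonatal-higher with all peaks were then called adult-higher. With the 100000 strongest peaks of each list the counts were 2443 and 377.

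Alb-D2KO libraries, which the calls did not use, lay on the same side. Among the neonatal-higher windows, 2954 of 3002 (98.4%) had both Alb-D2KO neonatal values above the Alb-D2KO adult, against 35.4% of all windows, and 2661 passed the same limit. Among the adult-higher windows, 457 of 460 (99.3%) were on the same side, against 38.0% of all windows, and 271 passed the limit. The libraries of both genotypes share age, so anything that differs between neonatal and adult samples other than age itself, such as pooling, is shared too.

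At one set of loci the adult lists of the genotypes stood apart. In 45 windows the control adult value was at least 40 kb below the Alb-D2KO adult, in 2 at least 40 kb above it, and 38 of these windows lay on chromosome 7 and 8 on chromosome 4. Of the 38 on chromosome 7, 36 were called neonatal-higher in control. Without all windows in which the adult lists differed by at least 20 kb, 2930 windows were higher in neonatal and 453 in adult.

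All 8 windows with the largest neonatal gap lay there, in the cluster of Vmn1r genes (vomeronasal receptors for pheromones) between 20.2 and 23.3 Mb of chromosome 7. At chr7:22000001-22100000, which holds Vmn1r138 and Vmn1r139, P1 and P5 had 93.1 and 92.5 kb covered and the adult 0.419 kb, whereas Alb-D2KO had 99.1, 58.8 and 87.6 kb. At chr7:20600001-20700000, with Vmn1r107, the control values were 96.8, 91.9 and 0 kb and the Alb-D2KO values 98.8, 69.1 and 79.7 kb. Across the 8 windows the control adult had 0 to 10.8 kb and the Alb-D2KO adult 70.9 to 94.9 kb. The low value was therefore seen in 1 of the 2 adult libraries, and a difference by age cannot be told apart here from a difference between animals.

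Windows off chromosome 7, chosen after the values were seen, had less cover in both adult libraries than at either neonatal age of the same genotype. At chr5:78900001-79000000, which holds no annotated gene, P1 and P5 had 85.9 and 84.1 kb covered and the adult 13.5 kb, against 86.9, 82.3 and 24.2 kb in Alb-D2KO. At chr17:13300001-13400000, around Tcp10c, the control values were 88.1, 91.0 and 21.4 kb and the Alb-D2KO values 85.9, 82.2 and 28.1 kb. The adult libraries differed more at chr2:100500001-100600000, with 7.93 kb in control and 39.4 kb in Alb-D2KO, and at chr2:100600001-100700000, with 12.1 and 33.1 kb. Over the 8 windows with the largest gaps, the adult had 7.93 to 25.9 kb in control and 21.1 to 39.4 kb in Alb-D2KO. Of these 8 windows, 7 held no protein-coding gene and had a GC content of 35.5 to 36.9%. Among stronger peaks, of −log10 p above 2, 6 of the 8 stayed higher at both neonatal ages.

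Adult-higher windows with the largest gaps lay inside long genes and were nearly empty in newborn liver. The window chr13:113900001-114000000 in Arl15, a small GTPase of the ARF family, had 0.49 and 0.885 kb for P1 and P5 and was covered over 100 kb, its whole length, in the adult, with 0.894, 2.47 and 94.0 kb in Alb-D2KO. Its neighbour chr13:113800001-113900000 had 0.611, 1.23 and 93.2 kb. The window chr8:114800001-114900000 in Wwox, an oxidoreductase gene at a common fragile site, had 0.544, 0.441 and 97.1 kb, and chr8:115200001-115300000 in the same gene had 7.92, 7.98 and 91.6 kb. The other windows lay in Tiam1 (chr16:89900001-90000000, with 0, 0.987 and 90.6 kb), in Tenm3, which encodes an adhesion protein of neurons (chr8:48300001-48400000, with 6.02, 6.82 and 94.9 kb), in Tcf4, a bHLH transcription factor (chr18:69500001-69600000, with 0, 0.971 and 84.6 kb), and in the zinc transporter gene Slc39a11 (chr11:113300001-113400000, with 0.185, 2.00 and 84.3 kb). In Alb-D2KO adult all 8 had 73.9 to 94.0 kb. Among peaks of −log10 p above 2 the adult still had 75.1 to 100 kb in these windows, so their adult peaks were strong ones.

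Base composition separated the called windows. Neonatal-higher windows had a median GC content of 37.1%, 4.82 CpG sites per kb and 43.8% soft-masked repeats, and windows not called had 42.2%, 8.51 and 29.9%. Adult-higher windows had 41.0%, 7.34 and 40.02%. No protein-coding gene was present in 71.1% of the neonatal-higher windows, 33.3% of the adult-higher ones and 30.0% of those not called. The 8 adult-higher windows above were unlike most of their class, with 12.9 to 17.1 CpG sites per kb and 16.8 to 24.5% repeats. The upper quartile of the adult-higher windows was 10.1 sites per kb, and their lower quartile of repeats was 31.1%. Median distance from the chromosome start was 65.8 Mb for neonatal-higher windows, 52.6 Mb for adult-higher ones and 66.8 Mb for those not called, with lower quartiles of 37.6, 21.6 and 34.9 Mb, so that the adult-higher windows lay nearer the start.

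By deciles of GC content, the mean covered length in the lowest decile was 58.7 and 60.3 kb for P1 and P5 and 30.7 kb for the adult, and in decile 6 it was 8.97, 10.3 and 12.7 kb. The adult was below both neonatal lists in the 3 lowest deciles and above both in the other 7. Alb-D2KO had 60.8, 61.7 and 27.9 kb in the lowest decile. In the lowest decile 67.2% of windows were called neonatal-higher and 0.083% adult-higher. With scaling, decile 3 moved to the adult side. With −log10 p above 2, the lowest decile had 4.63, 3.74 and 3.79 kb and the adult was above both neonatal lists in the other 9. GC content thus moved with the result, and its part in it, including any GC preference of the libraries, was not tested.

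**Figure D3:**
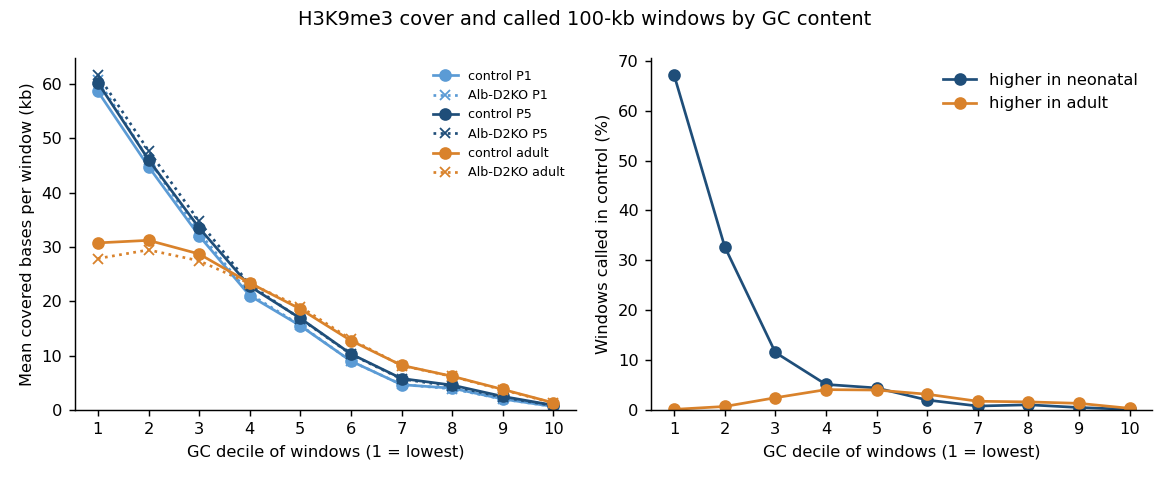
Left, mean covered bases per 100-kb window (kb) against the GC decile of the windows, with circles for control and crosses for Alb-D2KO at each age; right, the share of windows called in each direction in control (%). In the lowest decile the neonatal lines stand near 60 kb and the adult near 30 kb, the lines cross after decile 3, and neonatal-higher calls go from 67.2% in the lowest decile to 0.083% in the highest.

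Called windows joined into runs. The 3002 neonatal-higher windows formed 676 runs, of which 281 were single windows. The longest, chr14:87900001-97000000, spanned 91 windows with the protocadherin genes Pcdh9 and Pcdh20 and with Klhl1. In it 6410 and 6551 kb were covered for P1 and P5 and 2493 kb for the adult. The next was chr14:106500001-113800000, which holds the neuronal adhesion genes Slitrk1, Slitrk5 and Slitrk6, with 5475, 5677 and 2348 kb. The 460 adult-higher windows formed 329 runs, of which 255 were single windows. The longest, chr10:119200001-120200000 over Cand1, Grip1, Helb and Irak3, had 62.8, 116.5 and 517.3 kb. By chromosome, neonatal-higher windows were 3.58% of those of chromosome 13 and 21.3% of those of chromosome 14.

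By gene, the calls were more even. Each peak of a list carries 1 gene name, and widths were summed by name and called with a gap of at least 5 kb. Of 22327 names, 1381 (6.19%) were higher in neonatal and 1739 (7.79%) higher in adult, so 44.3% of calls were neonatal. With scaling this share was 32.8%. The majority turned when 1 neonatal list was used alone, with 2677 names higher in neonatal and 2418 in adult for P1 (52.5% neonatal) and 2794 and 2063 for P5 (57.5%). A wide peak over many genes is named for only 1 of them. Over gene bodies of a reference annotation, 882 of 51229 (1.72%) were higher in neonatal and 1146 (2.24%) in adult. Of these, 838 (95.0%) and 1083 (94.5%) lay on the same side in Alb-D2KO. The share of all gene bodies on each side in Alb-D2KO is not given here, so no conclusion is drawn from these counts. A gap of 5 kb is a smaller share of a long gene than of a short one, so the limit itself favours calls in long genes. Of coding genes of 500 kb or longer, 83 of 218 (38.1%) were higher in neonatal and 76 (34.9%) in adult, and of those under 20 kb, 92 and 45 of 11129. As a share of length, 21.2%, 22.3% and 16.6% of the longest genes lay in peaks at P1, P5 and adult, and 8.29%, 8.19% and 6.47% of those under 20 kb.

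The largest neonatal-higher genes were long genes of neurons. Lrp1b, a giant lipoprotein receptor, had 62.8% and 62.2% of its body in peaks for P1 and P5 and 30.7% for the adult. Lrrc4c, a synaptic adhesion protein, had 70.2%, 71.2% and 28.2%. The cadherins Cdh12 (67.6%, 68.3% and 26.3%) and Cdh18 (69.3%, 70.3% and 27.3%) were alike. Csmd3, Csmd1, Pcdh15, Cadm2, Ptprd and Sgcz had 33.1 to 59.5% for P1, 36.3 to 58.9% for P5 and 17.5 to 24.6% for the adult. In each of the 10 genes both neonatal lists were above the adult in Alb-D2KO too. These peaks were mostly weak. With −log10 p above 2 no list covered more than 5.68% of any of the 10, 5 were higher in the adult, and only Lrrc4c was higher at both neonatal ages.

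The largest adult-higher genes were long genes too, some of them also genes of neurons, and the mark was strong there. Wwox had 1.56% of its body covered for P1, 3.10% for P5 and 59.3% for the adult. Arl15 had 1.01%, 1.75% and 82.0%. Camkmt, a calmodulin methyltransferase, had 2.95%, 6.10% and 63.0%, and Tiam1 had 1.42%, 1.86% and 61.1%. Tenm3 had 9.51%, 9.38% and 50.8%, Grip1, a glutamate receptor scaffold, 6.99%, 14.2% and 57.3%, and Tcf4 3.73%, 4.97% and 51.9%. Fhit, which like Wwox lies at a fragile site, had 12.1%, 15.3% and 32.7%. Sugct had 15.0%, 19.1% and 38.6%. Each of these genes was higher in the adult with −log10 p above 2, where Arl15 kept 74.6% and Wwox 48.5%.

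**Figure D4:**
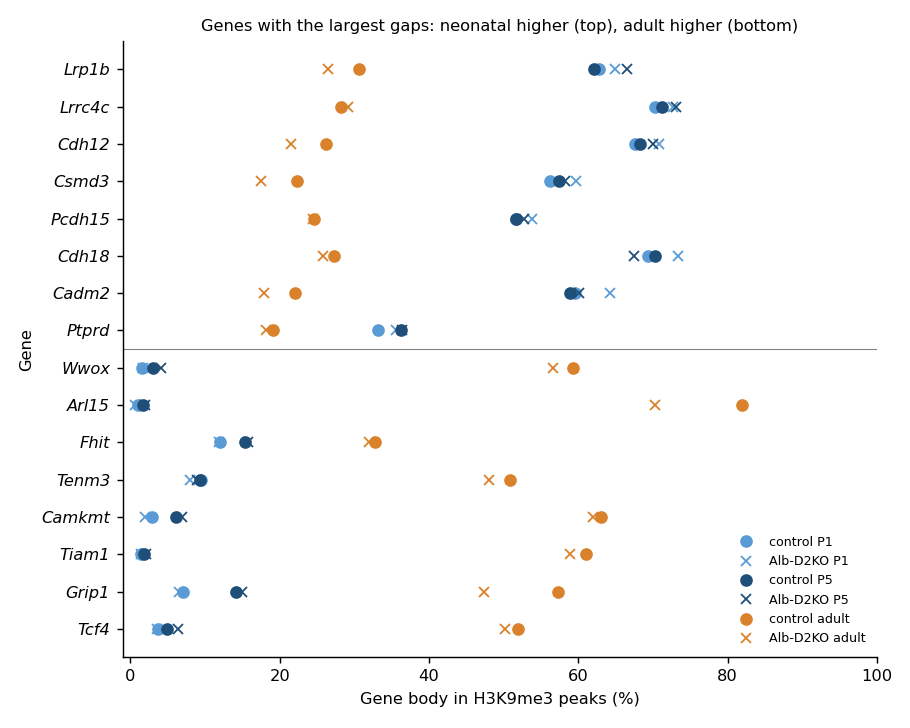
Share of the gene body in H3K9me3 peaks (x axis, %) for the 8 genes with the largest neonatal gap (top) and the 8 with the largest adult gap (bottom), with circles for control and crosses for Alb-D2KO. Neonatal points of the upper genes lie between 33.1% and 73.4% and adult points between 17.5% and 30.7%, and in the lower genes each adult point lies to the right of its neonatal points.

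Measured against gene length, shorter genes came first. In the neonatal direction they were receptors, among them Vmn2r74 (100%, 96.0% and 30.2% at P1, P5 and adult), Vmn1r69, Vmn2r72 and Olfr802, the pseudogenes Vmn2r-ps45, Vmn2r-ps82 and Klra13-ps, Tcp10c (90.6%, 100% and 18.4%), and the enzymes Sult2a8 (72.5%, 79.4% and 10.9%) and Cyp2c67 (84.3%, 92.3% and 24.7%). With −log10 p above 2, 2 of these 10, Sult2a8 and Cyp2c67, stayed higher at both neonatal ages and 1 was higher in the adult, and Vmn2r74, Olfr802 and Klra13-ps had 0% in each list. In the adult direction, Helb, a DNA helicase, had 0%, 0% and 90.5%, and 91.0% in Alb-D2KO adult. E2f7, a repressor of the cell cycle, had 0%, 2.66% and 75.6%, and Lrrc8b, a subunit of the volume-regulated anion channel, 2.57%, 8.46% and 76.2%. Zfp964, Morc2b, Olfr275 and Mlana followed. Zfp128 had 0%, 14.2% and 75.8%, but only 1.52% in Alb-D2KO adult, so its adult value was seen in 1 of 2 adult libraries.

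Among gene groups, sensory receptor families and some genes of adult hepatocytes lay on the neonatal side. Over all protein-coding genes, 8.94%, 9.68% and 8.71% of the joined gene bodies lay in peaks at P1, P5 and adult, and this order turned with scaling, when the adult had the most. In the list of 40 adult hepatocyte genes the values were 15.6%, 15.7% and 3.52%. Of the 40, 23 had no covered base at any age, so these sums rest on few genes. Among the 17 names with a peak, 5 were called neonatal-higher and 0 adult-higher, against 6.95% and 10.4% of coding names. The 5 were Cyp2c29 (68.9%, 70.5% and 20.01%) and Cyp3a11 (52.2%, 46.0% and 0%), which oxidise drugs and steroids, Sult2a8, a bile acid sulfotransferase, Slco1b2 (31.1%, 22.7% and 0%), an uptake transporter, and the complement gene C6 (30.1%, 32.9% and 14.3%). The albumin gene Alb had 0% at each age. With −log10 p above 2 the list had 0.26%, 1.18% and 0.876%, and the neonatal lists then lay on both sides of the adult. In the list of 20 fetal and neonatal liver genes no name was neonatal-higher and 2 of 10 were adult-higher, namely Hmga2 (0%, 0.286% and 5.06%), an architectural chromatin protein of growing tissue, and the imprinted gene Peg3 (6.52%, 6.95% and 21.5%). Uncalled members lay on both sides. Spink1 (18.3%, 9.87% and 0%), Peg10 (8.44%, 4.41% and 0%) and Plagl1 (3.26%, 4.44% and 2.45%) were higher at both neonatal ages. Lin28b (2.22%, 7.34% and 8.96%) was higher in the adult. Afp had 3.61% at P1 and 0% after.

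Of 20 thyroid hormone genes, 2 of 12 names with a peak were neonatal-higher, against 6.95% of coding names. They were Thrb (3.52%, 5.02% and 0.565%), the main thyroid hormone receptor of hepatocytes, and the transporter Slco1c1 (16.2%, 10.9% and 0%). As a whole the list had 1.62%, 2.27% and 0.975% of its length covered, but 0%, 0% and 0.079% with −log10 p above 2, and with the 100000 strongest peaks the adult lay between P1 and P5. Dio2, the deiodinase that makes T3 and is deleted in Alb-D2KO, had 4.59% at P1 and 0% at P5 and in the adult. Of the 38 long neuronal genes, a list chosen with such results known, 31 were neonatal-higher and 1, Tenm3, adult-higher, against 38.1% and 34.9% of all coding genes of 500 kb or longer when called over gene bodies. Of their length 33.8%, 35.2% and 20.1% was covered, and with −log10 p above 2 the list turned to the adult side with 1.48%, 1.09% and 2.76%.

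Enzyme families of adult liver and the Mup genes had more cover at P1 and P5. Ugt genes, which attach glucuronic acid to drugs and bilirubin, had 22.0%, 23.6% and 8.42%, and Ugt2b36 46.2%, 50.5% and 5.6%. Sult genes had 47.5%, 50.5% and 29.4%, Cyp genes 27.3%, 27.6% and 18.4%, and Mup genes 36.6%, 46.6% and 15.6%. Not every member followed. Cyp2j8 had 52.9%, 51.5% and 80.4%. Of 62 Cyp names 17 (27.4%) were neonatal-higher and 6 (9.68%) adult-higher, against 6.95% and 10.4% of coding names. Among peaks of −log10 p above 2 the Cyp and Mup families were higher in the adult, the Sult value of the adult lay between P1 and P5, and the Ugt genes stayed higher at both neonatal ages. All 4 families kept their side with scaling.

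Several receptor families were widely covered. Vmn2r genes had 72.1%, 71.3% and 51.2%, Tas2r genes 57.4%, 57.0% and 23.2%, Olfr genes 42.6%, 40.6% and 25.8%, and the Klr genes of natural killer cells 46.8%, 48.0% and 28.3%. Vmn1r genes (49.95%, 47.8% and 34.2%) and Skint genes (52.4%, 46.5% and 30.3%) include the loci at which the adult lists of the genotypes stood apart, and the Skint genes had 58.1% in Alb-D2KO adult. These sides were the same with scaling. Among peaks of −log10 p above 2 only the Vmn2r and Skint genes stayed higher at both neonatal ages, and the Olfr genes had 3.46%, 2.20% and 3.46%.

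Zinc finger genes lay on the adult side in every setting tried. Their joined bodies had 23.0%, 25.1% and 28.0%, or 13.3%, 14.9% and 21.7% with −log10 p above 2. Of 267 names, 68 (25.5%) were adult-higher and 20 (7.49%) neonatal-higher, against 10.4% and 6.95% of coding names. Zfp382 had 0%, 4.6% and 90.7% and Zfp64 0%, 0% and 20.1%. Zfp804b, a long gene of neurons, lay on the opposite side with 63.8%, 64.2% and 28.5%. Slc transporter genes had 4.46%, 5.31% and 7.13%, with 23 of 141 names (16.3%) adult-higher and 5 (3.55%) neonatal-higher. Hox genes had almost no cover, with at most 0.076% in a list.

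**Figure D5:**
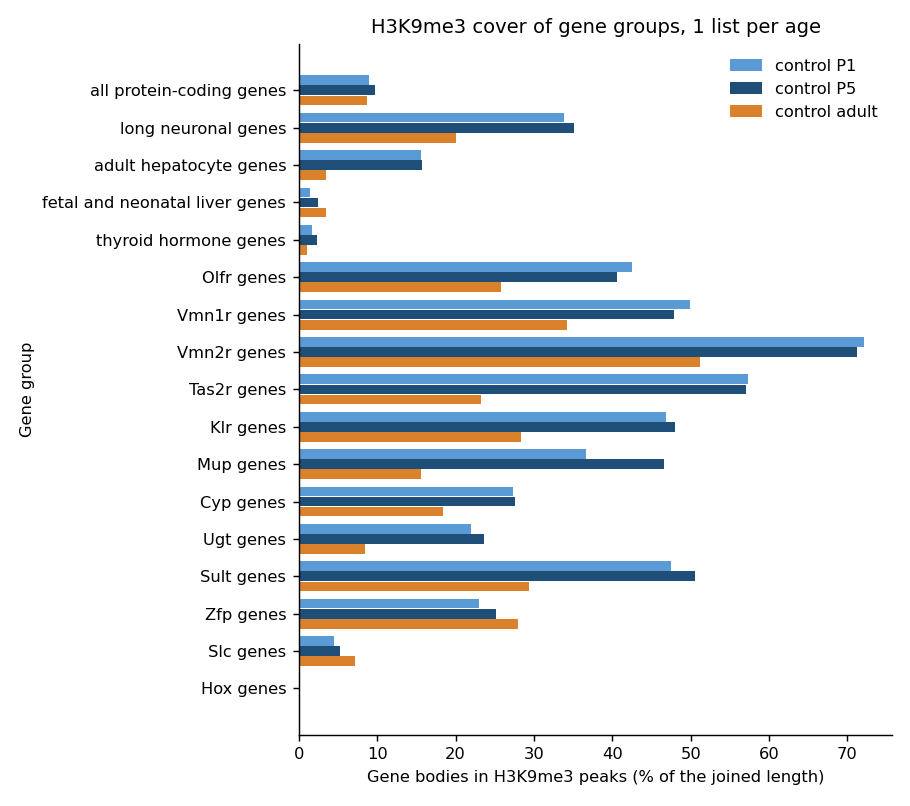
Share of the joined gene bodies in control H3K9me3 peaks (x axis, %) for all protein-coding genes, 4 gene lists and 12 symbol families, with 1 bar per age. The adult bar is the shortest for the hepatocyte list, the receptor and enzyme families and the Mup genes. It is the longest for the fetal list and the Zfp and Slc genes. The sides of several groups turned with −log10 p above 2.

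Marker genes of other liver cells also differed. Most of these markers had no covered base at any age, namely 20 of the 27 of blood-forming cells, 4 of 6 of Kupffer cells, 3 of 6 of stellate cells, 2 of 6 of endothelial cells, 4 of 6 of cholangiocytes and 6 of 7 of T and B cells, so each sum below rests on few genes. In the blood-forming list 3.52%, 5.11% and 7.04% of the length was covered. Its members did not all lie on one side, as Kit, the receptor of stem cell factor, was adult-higher (0.839%, 1.48% and 26.1%), whereas Rhag and Myb had cover at P5 only. The Kupffer cell list had 8.77%, 10.3% and 22.3%, with Adgre1, which encodes F4/80, at 17.2%, 20.2% and 42.9%. The stellate cell list had 6.75%, 7.83% and 14.8%, with Reln at 6.26%, 8.28% and 16.4%, the endothelial list 0.411%, 1.00% and 2.78%, mainly in Stab2, the cholangiocyte list 7.99%, 8.88% and 12.9%, mainly in Cftr, and the T and B cell list 2.20%, 0.826% and 4.16%, all in Ptprc. The adult sum was above both neonatal sums in these 6 lists with all peaks and with scaling, which describes the few covered genes and not the lists' members in general. Among peaks of −log10 p above 2 at most 4.65% of any of the 6 lists was covered. The part of cell mix in the results was not tested.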

How the data were processed

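H3K9me3 ChIP-seq peaks of mouse liver were analysed as deposited. The authors aligned reads to mm10 with BWA and called broad peaks with MACS2 over the input of the same group, in Partek Flow, with GENCODE M24 gene names. Per the file headers each peak has a start, an end, a gene name, the −log10 of its p-value and a fold enrichment, the linear ratio over input. The deposited −log10 p-values went down to 1.00, weaker than the stated limit. Reads are not in the lists, so depth is unknown. The 3 lists that compare genotypes hold the authors' own comparison and were not used. X and Y were left out.

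Overlapping peaks were joined and covered bases counted in 100-kb windows with at least 50 kb of known sequence (GRCm38.p6), by gene name and over GENCODE M21 gene bodies, with numpy 2.4.6 in Python. Counting was tested on simulated data. Named were the 8 windows and 10 genes with the largest gap per direction, 10 genes of at least 10 kb by percent of length, and members of lists and families with the largest gaps, without Gm, Rik and clone names. Some genes that meet these rules are not reported here. The members and lists were chosen with earlier results of these data known. Alternatives changed scaling, peak strength, gap, window size, neonatal list and gene model.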

Additional observations from a re-analysis of the deposited data

Results flagged for a closer look

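In 3 windows, all on chromosome 7, control and Alb-D2KO lay on opposite sides: both control neonatal values were above the control adult, and both Alb-D2KO neonatal values were below the Alb-D2KO adult. The Alb-D2KO gap was -2.38 kb at chr7:7000001-7100000, where the adult lists had 12.4 kb in control and 58.8 kb in Alb-D2KO. It was -0.763 kb at chr7:20300001-20400000, with 8.62 and 100 kb, and -1.17 kb at chr7:22400001-22500000, with 27.7 and 98.1 kb. These differences were not tested, since each group had 1 library.

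By gene name, 15 names were higher in neonatal in control and higher in adult in Alb-D2KO, and 29 were the reverse. Zfp442 had gaps of 38.4 kb in control and -36.5 kb in Alb-D2KO, but 92.7% and 96.5% of its body was covered in the control and Alb-D2KO adult. Counted over gene bodies, 0 genes were called in opposite directions. These differences were not tested.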

How the results depend on the processing

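No paired analysis was possible because each group had 1 library. Counts within 1.5 times of those reported are not repeated. Neonatal-higher and adult-higher windows came to 1928 and 1062 with scaling, 682 and 49 with a gap of 40 kb, 5790 and 1381 with 50-kb windows and 614 and 34 with 500-kb windows. Neonatal-higher windows were 93 with −log10 p above 2. Adult-higher windows were 1981 with a gap of 10 kb and 778 with the P1 list alone. Genes came to 762 and 856 with a gap of 10 kb and to 882 and 1146 over gene bodies. Neonatal-higher genes were 179 with −log10 p above 2, when 79 reported as neonatal-higher were adult-higher, 2677 with the P1 list alone (adult-higher 2418) and 2794 with the P5 list alone (adult-higher 2063). At P1, P5 and adult, covered lengths were 54.1, 49.0 and 100.8 Mb with −log10 p above 2, 291.2, 321.9 and 220.2 Mb with the 100000 strongest peaks, and 513.5, 529.8 and 440.8 Mb with peaks within 1000 bp merged. Median widths were 1150, 1472 and 1121 bp, 1616, 1873 and 1134 bp, and 1111, 1173 and 928 bp. Adult peaks overlapping neither neonatal list were 43.3% when at least 50% of the peak had to be covered and 17.7% for adult peaks of −log10 p above 2. With scaling, 96.7% of neonatal-higher and 100% of adult-higher windows lay on the same side in Alb-D2KO. The set without windows where the adult lists differed was added after seeing the data. The cause of these changes was not tested. Depth is unknown and limits all values.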
